A study of Rattus norvegicus with 6 samples.

Results

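The genes described are 48 rat genes of the cell cycle, DNA replication and mitosis. They were chosen by name from general knowledge of the pathway, with earlier results of these data known. Array probes were assigned to them through the RefSeq accession on each probe, which gave 90 probes for 43 of the 48 genes, out of 27460 named probes of 15284 genes and 61657 probes in all. No probe was matched to Mcm5, Uhrf1, Top2a, Bub1b or Melk, so their levels are not analysed and only their promoters were read. Liver RNA came from 6 male Sprague-Dawley rats, bought at 5 weeks of age, with 1 single-colour Agilent array per rat. The 3 treated rats received 1-amino-2,4-dibromoanthraquinone (ADBAQ), an anthraquinone dye intermediate, at a dose of 1000 mg/kg/day, and the 3 control rats vehicle. The labels disagree about the control treatment, which is either corn oil or purified water, and about the duration, which is either 9 weeks or 28 days. No genetic change is recorded for any of the rats.

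A dividing cell passes from G1, where cyclins D and E and the E2F factors act, into S phase, where the MCM helicase and the enzymes that make deoxynucleotides serve DNA replication. It then passes through G2 into mitosis, driven by cyclin B with the kinase Cdk1 and carried out by spindle motors, kinetochore kinases and cytokinesis proteins. Genes of G2 and mitosis are known to be switched on together by the MuvB complex with the B-Myb protein (gene Mybl2) and by FoxM1, through promoter elements called CHR and CCAAT boxes, while many replication genes carry E2F sites. Most hepatocytes of an adult liver rest outside the cycle, so transcripts of this kind are usually sparse in liver RNA and come from few cells.

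These promoter elements were searched for in RefSeq promoters (build GRCr8), each running from 250 bases before to 50 bases after a gene's start. Both strands were searched. The CHR was read as the letters TTTGAA or else as TTCGAA, and the CCAAT box as CCAAT. The E2F site was read as TTGGCGC, as the form TTCCCGC or as the form TTCGCGC. The first of these forms can overlap a reversed CCAAT box by its leading letters. The table held 38 promoters for 35 of the 48 genes. These include Mcm5, Uhrf1, Top2a, Bub1b and Melk, which had no matched probe, so the shares below are not those of the tested genes. Uhrf1 and Cdkn3 were counted with more than 1 promoter each. Among 23 promoters of G2 and mitosis genes, 60.9% held a CHR match, 78.3% a CCAAT match and 13% an E2F match. Among 13 promoters of replication genes, 23.1% held a CHR match, 76.9% a CCAAT match and 76.9% an E2F match. Over all 33469 promoters of the same length these shares were 19.7%, 37.5% and 7.52%. Among the 9 promoters of genes that rose, 2 held a CHR match (22.2%), 3 a CCAAT match (33.3%) and 1 an E2F match (11.1%). These shares are close to those over all promoters. The promoters of Bub1, Gtse1, Mybl2, Ccne1 and Tk1, which rose, held no match to any of the letter forms searched. Other forms were not searched, so an element of another form would be missed. The Mybl2 promoter, for example, holds the letters TTGGCGG, which were not among the E2F forms. The matches were found by letters alone and describe the sequence, not binding. The following promoters are shown, 5′ to 3′ in the direction of the gene, with matches in capitals. Ttk and Birc5 are mitosis genes that rose, and the only ones of the 9 with a CHR match, so they do not stand for the rest. Cdk1 is the mitotic kinase, and Tyms and Mcm10 are replication genes that moved in opposite directions.
Ttk, GRCr8 chr8:93634389-93634688, plus strand: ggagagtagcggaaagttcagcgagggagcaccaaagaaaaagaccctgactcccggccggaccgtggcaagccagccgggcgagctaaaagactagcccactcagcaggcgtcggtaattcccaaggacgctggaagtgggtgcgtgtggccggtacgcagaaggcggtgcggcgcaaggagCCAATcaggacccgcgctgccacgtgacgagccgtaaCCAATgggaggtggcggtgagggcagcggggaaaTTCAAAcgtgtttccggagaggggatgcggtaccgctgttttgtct
Birc5, GRCr8 chr10:103571896-103572195, plus strand: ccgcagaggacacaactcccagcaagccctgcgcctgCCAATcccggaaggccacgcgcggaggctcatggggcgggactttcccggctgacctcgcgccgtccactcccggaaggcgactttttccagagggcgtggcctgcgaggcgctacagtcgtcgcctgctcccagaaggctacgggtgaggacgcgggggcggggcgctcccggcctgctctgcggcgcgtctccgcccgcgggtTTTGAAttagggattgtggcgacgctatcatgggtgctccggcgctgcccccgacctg
Cdk1, GRCr8 chr20:19265043-19265342, plus strand: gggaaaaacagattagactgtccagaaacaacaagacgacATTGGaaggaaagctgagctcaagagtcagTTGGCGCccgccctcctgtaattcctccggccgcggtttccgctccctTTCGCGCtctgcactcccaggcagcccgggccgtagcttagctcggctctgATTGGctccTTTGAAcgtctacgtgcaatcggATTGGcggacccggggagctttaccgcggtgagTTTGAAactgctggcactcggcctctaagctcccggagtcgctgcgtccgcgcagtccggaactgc
Tyms, GRCr8 chr9:120776034-120776333, minus strand: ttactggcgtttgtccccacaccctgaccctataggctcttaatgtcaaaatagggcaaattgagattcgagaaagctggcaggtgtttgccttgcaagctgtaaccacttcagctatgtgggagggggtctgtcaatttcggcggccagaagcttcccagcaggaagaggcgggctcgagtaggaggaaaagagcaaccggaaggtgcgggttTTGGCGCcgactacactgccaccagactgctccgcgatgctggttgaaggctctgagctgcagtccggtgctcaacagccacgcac
Mcm10, GRCr8 chr17:78175137-78175436, plus strand: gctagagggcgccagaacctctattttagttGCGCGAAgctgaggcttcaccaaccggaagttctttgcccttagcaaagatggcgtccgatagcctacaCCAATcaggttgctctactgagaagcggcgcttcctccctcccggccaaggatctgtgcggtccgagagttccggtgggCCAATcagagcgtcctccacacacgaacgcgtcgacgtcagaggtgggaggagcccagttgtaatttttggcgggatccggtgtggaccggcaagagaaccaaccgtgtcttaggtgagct
The Ttk promoter held CCAAT at -67 and -30 relative to the start and a reversed CHR at 5, and that of Birc5 held CCAAT at -213 and a CHR at -8. That of Cdk1 held a CHR at -72 and -16, a reversed CCAAT at -210, -81 and -49, and E2F letters at -180 and -132. The Tyms promoter held only E2F letters, at -36, whereas Mcm10 held CCAAT at -150 and -71 and reversed E2F letters at -219.

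On every array 62.1% to 65.3% of the 61657 measured probes were well above background and none was saturated. A probe's level is its log2 signal relative to the 75th percentile of its array, so 0 is that percentile, and levels are compared between rats only, not between genes. To be tested, a probe had to be well above background in all 3 rats of one group or the other. A gene was represented by its brightest tested probe. Differences were tested with limma and Benjamini-Hochberg adjustment over all 38694 tested probes, and a gene is called when the adjusted p is under 0.05. Vehicle arrays lay on one slide and were scanned on one day, and ADBAQ arrays lay on another slide scanned on another day, so slide, scan day and treatment cannot be told apart. All 10 hepatocyte markers examined were well above background in all 6 rats. Vehicle replicate 1 lay apart from the other vehicle rats in many mitosis genes, and the main results are given with and without it.

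In the livers of ADBAQ rats the Myb factor genes Mybl1 and Mybl2, 6 of 22 tested G2 and mitosis genes, cyclin E1 and the thymidine nucleotide enzymes Tyms and Tk1 rose, while cyclin D1 and Mcm10 fell. Of the 43 genes with a probe, 40 were tested, and 34 of these were also well above background on all 6 arrays. Cdc6, Aurkb and Cenpf had no probe that passed the filter on dim signals, and are given by detection only. Of the 40, 11 rose (Mybl1, Mybl2, Gtse1, Ttk, Tpx2, Ccne1, Kif11, Tyms, Tk1, Birc5 and Bub1), 2 fell (Mcm10 and Ccnd1) and 27 were not called. Over all 11344 genes tested, 20.3% were called, 9.05% higher and 11.3% lower. The median log2 fold change of the 40 genes was 0.78, against -0.04 over all genes tested. In 25 of the 40 the ADBAQ values all lay above the vehicle values and in 2 all below, against 21.2% and 25.1% of all genes. A gene that entered only because it was bright in 1 group had to differ, and among genes with a probe well above background in all 6 rats 9 of 34 rose (9.42% of all genes), 2 fell and the median was 0.62. In whole liver RNA, more or fewer cells of a kind and more or less RNA per cell cannot be told apart.

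**Figure D1:**
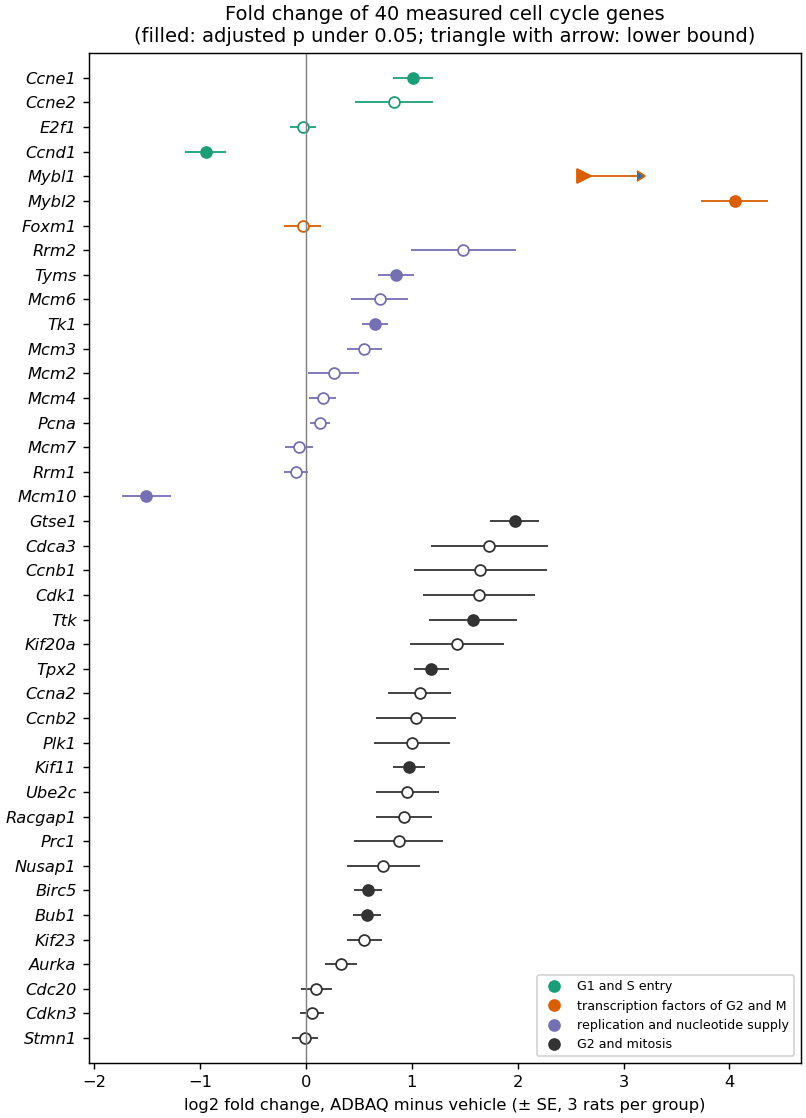
Log2 fold change (ADBAQ minus vehicle, x axis) of each of the 40 tested genes (y axis), grouped by colour into 4 roles; points are limma estimates with bars of ± SE from 3 rats per group, filled where the adjusted p is under 0.05, and the triangle with an arrow is a lower bound. Mybl1, at background in every vehicle rat, is drawn at its bound on the processed signal of at least 6.18-fold, and Mybl2 lies at 4.05. Ccnd1 and Mcm10 lie to the left at -0.95 and -1.51, and 21 of the 22 G2 and mitosis genes lie to the right of 0.

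The G1 and S entry genes went in opposite directions. Ccnd1 encodes cyclin D1, which links growth signals to G1 progression. Its level was 2.59, 3.04 and 2.73 in the vehicle rats and 1.82, 1.53 and 2.16 in the ADBAQ rats. Every ADBAQ rat was below every vehicle rat, and the log2 fold change was -0.95 ± 0.20 (adjusted p = 0.0244), where the error here and below is limma's SE with 3 rats in each group. The other Ccnd1 probes gave -0.74 and -0.86 and were called as well. Ccnd1 missed the threshold when vehicle replicate 2 or 3, or ADBAQ replicate 1 or 2, was omitted (highest adjusted p = 0.0758). With arrays scaled by their spike-in RNA, which moves the median of all genes from -0.04 to 0.72, the Ccnd1 value was -0.19 (adjusted p = 0.385).

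Ccne1 encodes cyclin E1, which acts with Cdk2 at the start of S phase. It measured -2.01, -1.58 and -1.76 in vehicle and -0.58, -1.13 and -0.62 in ADBAQ, with the groups apart, a log2 fold change of 1.01 ± 0.19 and an adjusted p of 0.0185. Its dimmer probe gave 0.58 (adjusted p = 0.308), and the mean of both probes was not called. Omitting vehicle replicate 3, or ADBAQ replicate 1 or 3, also ended the call (highest adjusted p = 0.0617). Ccne2, the paralogous cyclin E2, had overlapping groups (0.83 ± 0.37, adjusted p = 0.158) and a probe well above background on 2 of 3 vehicle arrays. E2f1, a transcription factor of S phase genes, had 4 probes that disagreed. The brightest gave -0.03 ± 0.12 (adjusted p = 0.879), and the next 0.50 ± 0.12 (adjusted p = 0.0388).

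Both Myb factor genes rose. Mybl2 encodes B-Myb, a partner of the MuvB complex in the activation of G2 and mitosis genes. Its brightest probe measured -5.58, -5.47 and -4.53 in vehicle and -0.87, -1.51 and -1.05 in ADBAQ. It was well above background on 1 of 3 vehicle arrays and on all ADBAQ arrays, and the log2 fold change was 4.05 ± 0.32 (16.6-fold; adjusted p = 0.00234). The other Mybl2 probes lay at background in every vehicle rat and were at least 3.97-fold and at least 2.88-fold higher (adjusted p = 0.000403 and 0.0169). These bounds set the vehicle signal, array by array, to its own value or to the dimmest signal still well above background, whichever was higher. Here and below they hold for the processed signal only, not under another background correction. Mybl1 encodes A-Myb, a related factor best known from male germ cells. Its only probe measured -7.29, -7.22 and -6.85 in vehicle, on no array well above background, and -2.58, -2.95 and -2.13 in ADBAQ. It was at least 6.18-fold higher (adjusted p = 0.000664). Both calls held with each array left out. With normexp background correction the log2 fold changes were 1.79 for the brightest Mybl2 probe and 0.91 for Mybl1. The other Mybl2 probes then gave 0.34 and 0.31. The Mybl1 value and those of the other Mybl2 probes are smaller than the bounds.

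Foxm1, whose protein acts after B-Myb on the same promoters, was not called. It measured -1.99, -1.58 and -1.38 in vehicle and -1.52, -1.78 and -1.75 in ADBAQ. The groups overlapped, with a log2 fold change of -0.03 ± 0.18 (adjusted p = 0.912). Its dimmer probe did not pass the filter, being well above background on 2 vehicle arrays and 1 ADBAQ array. The sign of the Foxm1 value changed with the scaling, from -0.03 to 0.00 with the median of each array and to 0.72 with spike-in scaling.

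The replication and nucleotide supply genes had 2 of 11 tested members higher and 1 lower, with a median of 0.26. Over all genes tested 9.05% were higher and 11.3% lower. With 1 rat omitted 0 to 2 were higher, none without vehicle replicate 3 or ADBAQ replicate 3, and 1 lower in each case. Of all genes, 3.54% to 6.29% were then higher. Tyms encodes thymidylate synthase, which makes dTMP. It measured -1.43, -1.08 and -1.43 in vehicle and -0.19, -0.73 and -0.47 in ADBAQ, a log2 fold change of 0.85 ± 0.17 (adjusted p = 0.0236). Tk1, thymidine kinase 1, which recovers thymidine for DNA synthesis, measured -0.04, 0.15 and -0.18 in vehicle and 0.50, 0.62 and 0.77 in ADBAQ. Its log2 fold change was 0.65 ± 0.12 (adjusted p = 0.0195), and its dimmer probe gave 0.42 (adjusted p = 0.0799). For both genes the groups did not overlap. Both calls were lost when vehicle replicate 1 or 3 or ADBAQ replicate 3 was left out, that of Tyms also without ADBAQ replicate 1 and that of Tk1 without ADBAQ replicate 2 (highest adjusted p = 0.0692 and 0.0615).

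Mcm10, which helps to load DNA polymerase and activate the helicase at origins, went the other way. Its level was -0.81, -0.45 and -0.93 in vehicle and -2.63, -2.26 and -1.83 in ADBAQ. All ADBAQ rats were lower than all vehicle rats, with a log2 fold change of -1.51 ± 0.23 (2.85-fold lower; adjusted p = 0.0114). Its dimmer probe gave -1.69 ± 0.33 (adjusted p = 0.0206). The call held with each array left out (adjusted p from 0.0184 to 0.0395), and the value was -1.22 with normexp background correction and -0.76 with spike-in scaling.

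The tested MCM subunits of the replicative helicase, Mcm2, Mcm3, Mcm4, Mcm6 and Mcm7, were not called. Mcm3 came nearest, with 4 probes between 0.54 and 0.86 and the brightest at 0.55 ± 0.17 (adjusted p = 0.0674). Mcm6 had 0.70 ± 0.27 (adjusted p = 0.12), and Mcm2, Mcm4 and Mcm7 had 0.26, 0.16 and -0.07. The dimmer tested probes of Mcm4 differed in direction, at 0.26 and -0.23, and neither was called. With normexp correction the latter gave -0.49 (limma adjusted p = 0.0154). Pcna, the sliding clamp of DNA polymerase, measured 1.18, 1.30 and 1.24 in vehicle and 1.40, 1.25 and 1.46 in ADBAQ. Its groups overlapped (0.13 ± 0.09, adjusted p = 0.36), and its other probe gave the same value of 0.13. Neither subunit of ribonucleotide reductase, which makes deoxynucleotides, was called. Rrm1, the large subunit, had -0.10 ± 0.11 (adjusted p = 0.573), and its other tested probe gave 0.03 (adjusted p = 0.885). Rrm2, the small subunit made in S phase, measured -1.71, -0.03 and 0.25 in vehicle and 1.06, 0.83 and 1.08 in ADBAQ (1.49 ± 0.50, adjusted p = 0.0858). The groups of Rrm2 did not overlap, and vehicle replicate 1 lay far below the other vehicle rats. Of its dimmer probes, the next was flat at 0.01 (adjusted p = 0.938), and the others lay at background in every vehicle rat, at least 1.31-fold and at least 1.26-fold higher, the latter called (adjusted p = 0.0476).

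Of the 22 tested G2 and mitosis genes 6 rose and none fell, with 21 of 22 values above 0, 17 with groups that did not overlap and a median of 0.96. Over all genes tested 9.05% were higher and 11.3% lower, and in 21.2% all ADBAQ values lay above all vehicle values. Omitting vehicle replicate 1 gave 12 higher and vehicle replicate 3 gave 8, while omitting vehicle replicate 2 or any 1 ADBAQ rat gave 3. With 1 rat omitted, 3.54% to 6.29% of all genes were higher. Gtse1, a microtubule-binding protein of G2 that also restrains p53, had the largest difference. It measured -3.98, -4.06 and -3.98 in vehicle and -2.29, -2.33 and -1.50 in ADBAQ, a log2 fold change of 1.97 ± 0.23 (adjusted p = 0.00604). Vehicle rats were nearly alike and every ADBAQ rat was higher. Kif11, the motor that pushes spindle poles apart, measured -3.67, -3.14 and -3.46 in vehicle and -2.49, -2.50 and -2.37 in ADBAQ (0.97 ± 0.15, adjusted p = 0.0116). Tpx2, which activates Aurora A on the spindle, measured -4.89, -4.61 and -4.99 in vehicle and -3.75, -3.83 and -3.36 in ADBAQ (1.18 ± 0.16, adjusted p = 0.00948). The calls of Gtse1, Kif11 and Tpx2 held with each array left out. Tpx2 was well above background on only 2 of 3 vehicle arrays, and with normexp background correction its value was 0.00 (adjusted p = 0.974).

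Ttk, the spindle checkpoint kinase Mps1, measured -4.93, -3.37 and -3.47 in vehicle and -2.26, -2.52 and -2.26 in ADBAQ (1.58 ± 0.41, adjusted p = 0.0467). A second Ttk probe, well above background in all 6 rats, gave 1.23 ± 0.22 (adjusted p = 0.0168), with a normexp value of 0.28 that was not called. The third lay at background in every vehicle rat and was at least 1.1-fold higher (adjusted p = 0.00947). Bub1, a kinase of the same checkpoint, measured -2.91, -2.59 and -2.48 in vehicle and -2.02, -2.11 and -2.12 in ADBAQ (0.58 ± 0.13, adjusted p = 0.0321). Birc5, survivin, a subunit of the chromosomal passenger complex, measured -1.24, -1.04 and -0.88 in vehicle and -0.58, -0.30 and -0.51 in ADBAQ (0.59 ± 0.13, adjusted p = 0.0309). In all these genes the groups were apart. Omitting vehicle replicate 2, or any 1 ADBAQ rat, ended the calls of Bub1, Ttk and Birc5 (highest adjusted p = 0.0981, 0.124 and 0.0856). Omitting vehicle replicate 3 ended that of Ttk as well, and omitting vehicle replicate 1 that of Birc5.

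The mitotic kinase and its cyclins had wide differences that did not pass the threshold. Cdk1 measured -2.73, -0.86 and -0.67 in vehicle and 0.21, 0.05 and 0.38 in ADBAQ (1.63 ± 0.53, adjusted p = 0.0805). Ccnb1, cyclin B1, measured -5.83, -3.55 and -3.43 in vehicle and -2.49, -2.72 and -2.66 in ADBAQ (1.64 ± 0.63, adjusted p = 0.117). Cdca3, which promotes entry into mitosis, measured -3.89, -1.99 and -1.72 in vehicle and -0.79, -0.91 and -0.70 in ADBAQ (1.73 ± 0.55, adjusted p = 0.0755). Kif20a, a motor of cytokinesis, measured -4.56, -2.94 and -2.88 in vehicle and -2.08, -2.02 and -2.02 in ADBAQ (1.42 ± 0.45, adjusted p = 0.0725). Ccnb1, Cdca3 and Kif20a were chosen for display after their values were seen. In each of these genes vehicle replicate 1 was far below vehicle replicates 2 and 3, which in turn were below all ADBAQ rats.

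The remaining G2 and mitosis genes that were not called ranged from 1.08 for Ccna2, cyclin A2 (adjusted p = 0.0528), to -0.01 for Stmn1, the microtubule destabiliser stathmin. Plk1, a polo-like kinase of mitosis, had 1.00 ± 0.36 (adjusted p = 0.0996), with its dimmer probe called at 1.07 (adjusted p = 0.0467). Ccnb2, Ube2c, Racgap1, Prc1, Nusap1 and Kif23 lay between 0.55 and 1.04, and Aurka, the kinase that Tpx2 activates, was at 0.33, with its dimmer probe called at 0.59 (adjusted p = 0.0298). Cdc20 and Cdkn3, at 0.10 and 0.06, differed little between groups. The 3 tested Stmn1 probes all lay between -0.14 and -0.01. Of the genes that could not be tested, Cdc6 was well above background on 3 vehicle and 3 ADBAQ array readings over its 2 probes, Aurkb on 1 ADBAQ array and none of vehicle, and the 4 probes of Cenpf on 3 ADBAQ readings and none of vehicle.

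The vehicle rats themselves differed in these genes. Vehicle replicate 1 was the lowest of all 6 rats in 19 of 22 G2 and mitosis genes and in 29 of the 40 tested genes, against 18.7% of all genes tested. It was the highest of the vehicle rats in none of the 40. In 10 of the 40 it lay at least 1 log2 unit below both other vehicle rats (Rrm2, Ccnb1, Cdk1, Plk1, Ttk, Kif20a, Nusap1, Cdca3, Prc1 and Ube2c), against 1.04% of all genes. No gene of the 40 was that far below for vehicle replicate 2 or 3. Relative to the vehicle mean, the median over the 22 G2 and mitosis genes was -0.63, 0.20 and 0.37 in the vehicle rats and 0.96, 0.84 and 1.03 in the ADBAQ rats. The group medians did not overlap, and the vehicle rats spanned a wider range than the ADBAQ rats. Among the ADBAQ rats, replicate 3 had the highest value of its group in 24 of the 40 genes, replicate 1 in 12 and replicate 2 in 4.

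Without vehicle replicate 1, 16 of the 40 genes rose and 2 fell, and the median was 0.57. Over all genes the share called higher went from 9.05% to 6.29%, and in a wider list of cell cycle genes from 22 to 15 genes. Among G2 and mitosis genes 12 of 22 rose, with a median of 0.62. Cdk1 then had 0.98 (adjusted p = 0.0207), Ccnb1 0.86 (adjusted p = 0.0192), Cdca3 1.05 (adjusted p = 0.0171), Kif20a 0.87 (adjusted p = 0.0133), Plk1 0.57 (adjusted p = 0.0266) and Rrm2 0.88 (adjusted p = 0.0261), all by limma. Ccna2 (0.74) and Racgap1 (0.63) were also called. Gtse1, Mybl2 and Mcm10 moved little, to 1.98, 3.86 and -1.55. Birc5, Tk1 and Tyms were no longer called (adjusted p = 0.0671, 0.0501 and 0.0624). Leaving out ADBAQ replicate 1, 2 or 3 instead left 6, 7 and 5 genes higher, against 3.54%, 4.52% and 4.14% of all genes. Leaving out vehicle replicate 2 or 3 left 8 and 10, against 5.54% and 5.4% of all genes.

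**Figure D2:**
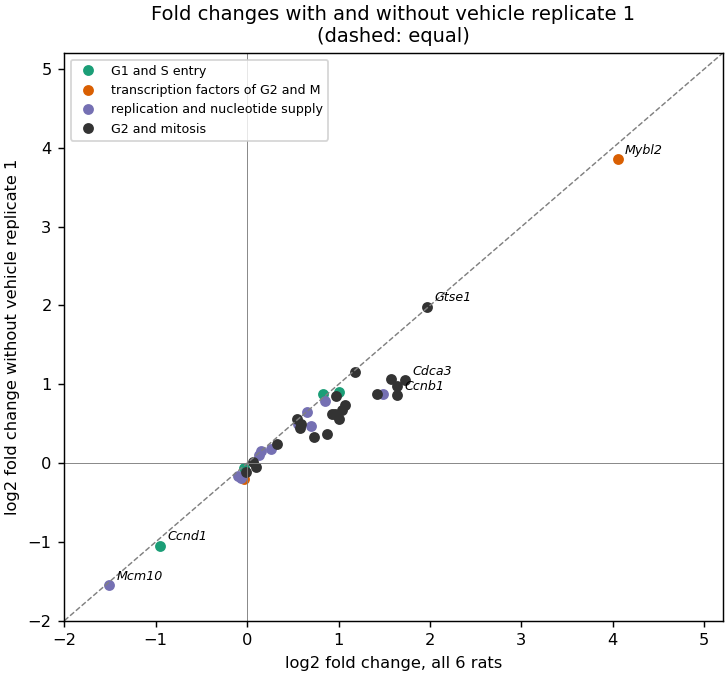
Log2 fold change (ADBAQ minus vehicle) with all 6 rats (x axis) against that without vehicle replicate 1 (y axis) for 39 of the 40 tested genes (Mybl1, which has only a bound, is left out), coloured by role, with the dashed line marking equal values. Cdca3 and Ccnb1 drop below the line, from 1.73 to 1.05 and from 1.64 to 0.86, while Gtse1, Mybl2, Ccnd1 and Mcm10 stay near it.

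Many of these genes are dim in liver, and the background correction changed the size of their differences. With normexp correction on the median spot signal (offset 50) the median of the 40 genes was 0.29, 16 rose (12.3% of all genes) and 2 fell. Cdk1, Ccnb1, Ccna2, Cdca3, Kif20a, Pcna and Rrm2 were then called, whereas Tpx2 and Bub1 were not. The values of Tpx2, Racgap1 and Mcm6 fell to 0.00, 0.01 and -0.01. Ccnd1 kept -0.91 and Mcm10 -1.22. With spike-in scaling, 38 of the 40 genes were called higher and 1, Mcm10, lower, where 78.8% of all genes were higher, and the median of the 40 was 1.54 against 0.72 over all genes.

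**Figure D3:**
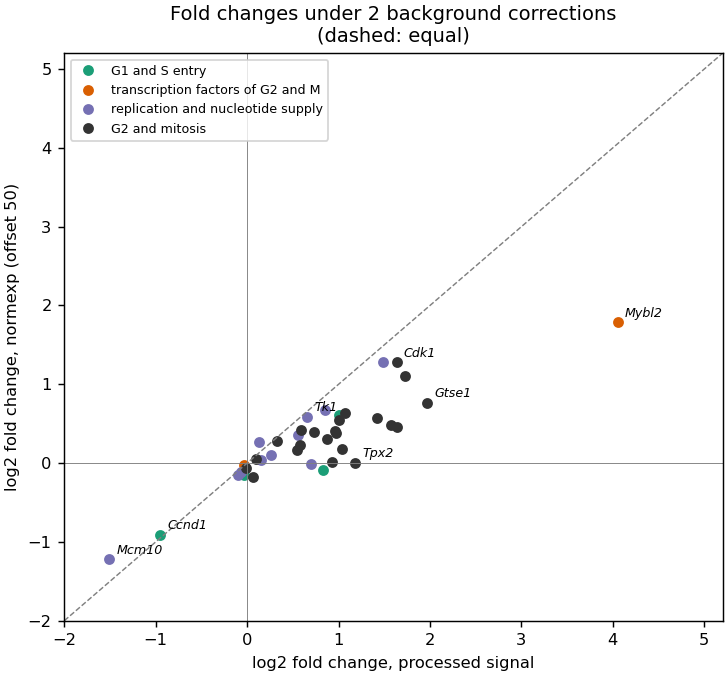
Log2 fold change (ADBAQ minus vehicle) from the processed signal (x axis) against that with normexp background correction (y axis) for 39 of the 40 tested genes (Mybl1, which has only a bound, is left out), coloured by role, with the dashed line marking equal values. Mybl2 drops from 4.05 to 1.79 and Tpx2 from 1.18 to 0.00, while Ccnd1 and Tk1 lie near the line.

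A wider list of 135 cell cycle genes outside the 48 had 100 tested members, of which 22 rose and 7 fell, with a median of 0.27. Over all genes tested, 9.05% were higher and 11.3% lower, with a median of -0.04. With 1 rat omitted, 3.54% to 6.29% of all genes were higher, and 520 to 852 of the 11344 were lower. With normexp correction 20 of the 100 genes of the wider list were higher and 13 lower, and their median was only 0.03. Over all genes 12.3% were then higher and 2649 of the 11344 lower, with a median of -0.10. Of 87 genes of the list with a probe well above background in all 6 rats, 18 were higher and 7 lower, with a median of 0.20. The spindle, kinetochore, condensin and cytokinesis genes of the list had 11 of 34 higher and 1 lower, with a median of 0.76. Of the 24 with a probe well above background in all 6 rats, 8 were higher and the median was 0.43, and with normexp correction the median of the 34 was 0.15. Omitting vehicle replicate 1, 2 or 3 left 10, 11 and 5 higher, omitting ADBAQ replicate 1, 2 or 3 left 3, 3 and 2, and in none of these was a gene lower. Ckap2, a spindle protein, rose by 2.77 ± 0.60 (adjusted p = 0.0287), Espl1, separase, by 1.61 ± 0.43 (adjusted p = 0.0469), and the motor Kif22 by 1.42 ± 0.33 (adjusted p = 0.0337). Cdca8, borealin, was at background in every vehicle rat (at least 1.38-fold higher, adjusted p = 0.037). Its value with normexp correction was -0.06. Cdca2, Kif2c and Kif18a, also called, lay at background in every vehicle rat too. Ccnf, cyclin F, changed by -0.43 ± 0.11 (adjusted p = 0.0447). In 20 of these 34 genes vehicle replicate 1 was the lowest of the 6 rats. In 9 (26.5%) it lay at least 1 log2 unit below both other vehicle rats, against 1.04% of all genes. These 9 include Ckap2, Espl1, Kif22 and Cdca8, so that rat widened the differences given for them. Mki67, the gene of the proliferation antigen Ki-67, had no matched probe.

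Replication origin and fork genes of the wider list had 7 of 36 higher and none lower, against 9.05% and 11.3% of all genes. Their median was 0.21. With normexp correction 4 were higher and 1 lower, and the median was -0.03. Omitting vehicle replicate 1, 2 or 3 left 2, 5 and 2 higher, and omitting ADBAQ replicate 1, 2 or 3 left 3, 2 and 1, with 1 lower in the last. Gins1, a helicase subunit, rose by 0.94 ± 0.18 (adjusted p = 0.0197), Cdt1, an origin licensing factor, by 0.90 ± 0.13 (adjusted p = 0.00948), Orc5 by 0.64 and Pold2 by 0.57. Cdt1 was well above background on 1 of 3 vehicle arrays, and its value was -0.11 with normexp correction. In no gene of this group did vehicle replicate 1 lie 1 log2 unit below the other vehicle rats.

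G1 kinases, pocket proteins and E2F factors had 1 of 15 higher and 4 lower, against 9.05% and 11.3% of all genes. Their median was 0.02. Cdk2, the partner of cyclins E and A, measured 0.92, 0.74 and 0.75 in vehicle and -0.18, -0.46 and -0.40 in ADBAQ (-1.15 ± 0.11, adjusted p = 0.00397). The repressor E2f7 changed by -0.83 ± 0.16 (adjusted p = 0.021), the retinoblastoma gene Rb1 by -0.78 ± 0.14 (adjusted p = 0.0164) and its relative Rbl2 by -0.57 ± 0.12 (adjusted p = 0.0275). Cdk6, a partner of D cyclins, rose by 0.75 ± 0.18 (adjusted p = 0.0347). With spike-in scaling, 10 of these 15 were higher and 1 lower, where 78.8% of all genes were higher. With 1 rat omitted, the count lower was 4 without vehicle replicate 1 or 2, 2 without vehicle replicate 3 or ADBAQ replicate 2 or 3, and 1 without ADBAQ replicate 1.

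Inhibitors of cyclin-dependent kinases and of proliferation had 3 of 15 higher and 2 lower, against 9.05% and 11.3% of all genes. Their median was 0.08. With 1 rat omitted 2 to 3 were higher and 0 to 2 lower, none lower without vehicle replicate 3 or ADBAQ replicate 1 or 2. With normexp correction 3 were higher and 4 lower. With spike-in scaling 10 of these 15 were higher and none lower, where 78.8% of all genes were higher. Wee1, which holds Cdk1 inactive, rose by 1.41 ± 0.21 (adjusted p = 0.0107), and Ccng1 and Btg2, both known p53 targets, by 0.96 ± 0.12 and 0.88 ± 0.16 (adjusted p = 0.00779 and 0.0176). Btg1, an antiproliferative factor, changed by -1.15 ± 0.21 (adjusted p = 0.0176) and Cdkn1c, the inhibitor p57, by -0.71 ± 0.18 (adjusted p = 0.0456). Cdkn1a, the inhibitor p21, had probes that disagreed, at -0.23, 0.77 and 0.95, none of them called (adjusted p = 0.25, 0.162 and 0.077).

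Whole liver holds other cells that can divide, and their markers were read on the same arrays. Over all genes tested 9.05% were higher and 11.3% lower. Erythroid markers rose in 5 of 6 tested genes, with a median of 1.18, and their summed level relative to the 75th percentile was 204.8 to 285.9 in vehicle and 415.5 to 556.7 in ADBAQ. Alas2, the erythroid enzyme of haem synthesis, rose by 1.41 ± 0.27 (adjusted p = 0.0206) and Klf1, an erythroid factor, by 0.64 ± 0.13 (adjusted p = 0.0245). Of 8 such markers 6 had a matched probe, 5 of them well above background in all 6 rats, and the sum is almost wholly Hbb, beta globin. With normexp correction Klf1 was at -0.07. Within the vehicle group the sum was lowest in replicate 1 for 6 of the 9 marker lists (erythroid, neutrophil, cholangiocyte and progenitor, T and NK cell, B and plasma cell, and stellate). The neutrophil sum was 0.91 to 1.56 in vehicle and 1.23 to 2.49 in ADBAQ, with Elane at background throughout. The part of these cells in the result was not tested. Cholangiocyte and progenitor markers had 3 of 7 higher and 1 lower, with sums of 2.45 to 2.64 in vehicle and 3.37 to 4.91 in ADBAQ, and their part was not tested either. Of the Kupffer cell and macrophage markers 1 of 12 rose, with sums of 144.2 to 170.6 in vehicle and 161.8 to 179.5 in ADBAQ. None of the T and NK cell, B and plasma cell, neutrophil, endothelial and stellate markers rose (0 of 10, 4, 3, 6 and 9), while 1 T and NK cell and 2 B and plasma cell markers fell. With spike-in scaling 8, 2, 3, 5 and 8 of them were higher and only 1, a B and plasma cell marker, lower. Hepatocyte markers fell in 7 of 10, with sums of 6629 to 7184 in vehicle and 4907 to 5245 in ADBAQ. This fall depended on the scaling. With spike-in scaling 4 of the 10 were higher and 1 lower, with a median of 0.29, where 78.8% of all genes were higher.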

How the data were processed

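Liver RNA of 6 rats was measured on 1-colour Agilent arrays. Per the file headers, arrays were read with Feature Extraction 10.7.1.1 (10.7 per the submitters' processing notes), on a design built on rn4. The authors deposited linear intensity columns for each spot (background-subtracted processed signal, median signal and median local background), with flags for each spot. The deposited series table holds a ratio, the processed signal over the array's 75th percentile, found by setting it against the scanner values, and was an alternative only.

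Processed signals were put on the log2 scale and each array's 75th percentile was subtracted. Spots with an outlier flag, at most 2 on an array, were dropped. The test was limma's (version 3.58.1, under R 4.3.3; lmFit and eBayes), run over 38694 probes of 11344 named genes and of unnamed targets, with adjusted p under 0.05 as the threshold, tested on simulated data. The mean spot signal was not used, and normexp took the median. The SE is that of eBayes. Labels describe separate animals. The number of arrays limits the precision. Near-identical copies of a gene are uncertain, since shared probe targets were not searched for.

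The genes and lists were chosen with earlier results of these data known. The naming rule gave full values for called genes, for the largest difference in each role and for Ccnd1, Ccne1, Pcna, Top2a (no matched probe), Cdk1 and Foxm1. From each wider list it took up to 4 called genes per direction by size, with Mki67 and Cdkn1a. Full values of Rrm2, Ccnb1, Cdca3, Kif20a and Cdk2 were added after they were seen. Same-numbered vehicle and ADBAQ arrays did not deviate together (correlations -0.03, -0.02 and -0.01), so the main comparison is unpaired. Alternatives were background correction, scaling, filter, series table, variance model, array weights, replicate block, probe averaging and each array left out.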

Additional observations from a re-analysis of the deposited data

How the results depend on the processing

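The 40 tested genes had a median log2 fold change of 0.78 with 11 higher and 2 lower. With an unadjusted p under 0.05, 24 were higher (17.2% of all genes). Scaled to the spike-in controls, 38 were higher and 1 lower. The wider list then had 86 of 100 higher and 1 lower, where 78.8% of all genes were higher. Medians were 1.54 (all 40), 1.72 (mitosis) and 1.02 (replication), against 0.72 over all genes. With normexp correction the medians were 0.29 (all 40) and 0.39 (mitosis). Of the wider list 13 of 100 genes were then lower, where 2649 of all 11344 genes were lower. Same-numbered rats share only a number. With the replicate block 5 of the 40 genes were higher and 1 lower (Gtse1, Kif11, Mybl1, Mybl2, Tpx2 and Mcm10), and 9 and 2 of the wider list, where genes called over all genes fell to 431 higher and 555 lower. Leaving out 1 array gave 5 to 16 of the 40 higher and 1 to 2 lower, 6 to 20 and 1 to 6 of the wider list, and medians of 0.57 to 0.91 (all 40), 0.62 to 1.12 (mitosis) and 0.09 to 0.42 (replication).

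None of the 13 called genes of the 40 changed sign under these alternatives. Among the 27 not called, signs changed with normexp for Ccne2 (-0.088), Cdkn3 (-0.17) and Mcm6 (-0.011), with quantile normalization for Stmn1 (0.007), with the array median for E2f1 (0.004), Foxm1 (0.002) and Stmn1 (0.025), with the mean of probes for E2f1 (0.26), and with the spike-in controls for E2f1 (0.73), Foxm1 (0.72), Mcm7 (0.69), Rrm1 (0.66) and Stmn1 (0.75). With 1 array left out, ranges that include both signs were -0.048 to 0.21 (Cdc20), -0.02 to 0.12 (Cdkn3), -0.12 to 0.061 (E2f1), -0.20 to 0.11 (Foxm1), -0.02 to 0.42 (Mcm2) and -0.11 to 0.044 (Stmn1). Apart from the scalings the cause was not tested. Dim signal limits Tpx2, Mybl1, Mybl2, Ccnb1, Ccne2 and Racgap1, none of whose probes was well above background on every vehicle array, and the brightest probe of Ttk.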
